A study of Mus musculus with 4 samples.

Results

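Genes of major histocompatibility complex (MHC) class I presentation were followed across cell classes in brain tumours of mice that carried wild-type or mutant isocitrate dehydrogenase 1. They were taken by symbol and are 10 of the 31053 genes in the count matrices. H2-K1 and H2-D1 encode the classical heavy chains, B2m the light chain that all of them share, and H2-Q4, H2-Q6 and H2-Q7 heavy chains of the nonclassical Qa group. Tap1, Tapbp and Psmb8 supply and load the peptide, and Nlrc5 encodes a transactivator of class I genes. All 10 had counts in each of the 4 libraries.

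The libraries are single-cell RNA libraries of immune cells from brain tumours that they had infiltrated, taken from C57BL/6 mice with symptoms in a genetically engineered glioma model. Of these, 2 came from tumours labelled wtIDH1 and 2 from tumours labelled mIDH1. The other tumour alleles, the age and sex of the mice, the number of animals per library and the way the cells were isolated are not given in the sources used here. Nothing in them says that the 2 libraries of a genotype came from separate animals. The p-values between genotypes below therefore measure only the spread between libraries, which may be technical. Comparisons between cell classes, also of genotype differences, held a term for each library. Their p-values rest on the spread left after it, which may be technical too.

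Almost every nucleated cell displays peptides from its own proteins on class I molecules, where CD8 T cells read them. The proteasome, with Psmb8 as a subunit of its interferon-induced form, cuts the peptides, TAP carries them into the endoplasmic reticulum, and tapasin (Tapbp) bridges TAP to the empty heavy chain and B2m. Interferon gamma raises the whole set, and a tumour cell that loses it becomes hard for CD8 T cells to see but open to natural killer (NK) cells, which sense missing class I. Qa molecules vary less between individuals than H2-K and H2-D.

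The counts are unique molecular identifiers (UMIs), 1 per captured RNA molecule. Library totals ran from 20908476 to 29849183 UMIs over 3701 to 4708 barcodes, pairs of libraries shared 6 to 25 barcode sequences, and 13123 cells were kept, with median depths of 4948 and 4864 UMIs in wtIDH1 and 3350 and 2692.5 in mIDH1 cells. Marker genes, none of them a class I gene, placed 9647 of the kept cells (73.5%) in 15 classes. The 11 classes with at least 20 cells in every library were compared: neutrophils (2491 cells), monocytes (1996), macrophages (1783), microglia (381), cDC2 (conventional type 2 dendritic cells, 151), migratory dendritic cells (DCs, 230), CD4 T cells (430), regulatory T cells (Treg, 149), CD8 T cells (812), NK cells (676) and tumour cells (281). The names are gates on markers, and cells within 10% of a limit or with only the number of markers needed made up 35.1% of cDC2, 21.6% of macrophages and at most 17.1% of the other compared classes. A level below is the class's summed UMIs of a gene per 1000000 UMIs of that class and library (CPM), always listed as wtIDH1 replicate 1, wtIDH1 replicate 2, mIDH1 replicate 1 and mIDH1 replicate 2.

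The tumour gate took cells with at least 2 UMIs of Nes and Sox2, neural stem cell genes, and none of the leukocyte gene Ptprc or the endothelial gene Cldn5. It held 38, 41, 121 and 81 cells, although the samples are labelled as immune cells. The median depths of these cells were 6668.5, 20972, 37460 and 34916 UMIs (30470 over all of them). A first form of the gate also barred Cdh5, an endothelial gene, and this condition was dropped after class I levels had been seen. Sox9, a glial stem cell gene that was not in the gate, was at 382, 420, 217 and 241 CPM there and at most 6.49 CPM in macrophages. Cdh5 was at 108 and 248 CPM in the wtIDH1 tumour-gated sums and at 0.210 and 3.98 CPM in the mIDH1 ones. The oligodendrocyte marker list summed to 1967 CPM in wtIDH1 replicate 1 and to at most 148 CPM in the others, and the part of these markers in the tumour values was not tested. Mouse Idh1 itself was at 38.1, 27.7, 100.8 and 110 CPM in these cells, and the labels do not say whether the tumours' own IDH1 sequence is counted in that row.

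All genes but B2m (chr2:122147686-122153083) and Nlrc5 (chr8:94434356-94527272) lie on chromosome 17 in the mm10 build (GENCODE M21). The classical genes H2-K1 (chr17:33996017-34000347) and H2-D1 (chr17:35262730-35267499) stand at either side of the region that holds Tap1 and Psmb8. Tap1 ends at 34197225 and Psmb8 starts at 34197721. Tapbp (chr17:33915899-33929292) lies before H2-K1, outside that region. H2-Q4 (chr17:35379617-35385290), H2-Q6 (chr17:35424850-35430055) and H2-Q7 (chr17:35439155-35443773) follow H2-D1. The heavy chain genes are paralogs, and reads that fit several genes cannot be told apart. In the GENCODE transcripts, 26.6% of the windows of 91 bases in the last 500 bases of H2-Q6 also occurred in another gene, against 8.85% for H2-D1, 7.07% for H2-Q4, 3.72% for H2-Q7 and 2.19% for H2-K1, and B2m, Tap1, Psmb8 and Nlrc5 shared none. Counts of the heavy chain genes, H2-Q6 above all, are uncertain for that reason.

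The promoters of the 5 heavy chain genes are shown because the classical and Qa genes are compared throughout. RefSeq promoters (GRCm38.p6, 250 bases before to 50 after the start site) matched 9 of the 10 genes, with no entry for Nlrc5. Capitals mark a kappa B core (GGGATTCCC, the NF-kappa B element of enhancer A), an interferon response core (AGTTTCACT), a CRE-like core (TGACG, as in the X2 box that takes part in Nlrc5-dependent activation) and an inverted CCAAT box (ATTGG), searched on both strands. The windows are chr17:34000359-34000479 (minus strand) for H2-K1 and, on the plus strand, chr17:35262902-35263022 for H2-D1, chr17:35379422-35379542 for H2-Q4, chr17:35424656-35424776 for H2-Q6 and chr17:35439000-35439120 for H2-Q7.
H2-K1: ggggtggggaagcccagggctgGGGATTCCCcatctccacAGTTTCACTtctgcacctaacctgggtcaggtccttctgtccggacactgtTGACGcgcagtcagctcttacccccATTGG
H2-D1: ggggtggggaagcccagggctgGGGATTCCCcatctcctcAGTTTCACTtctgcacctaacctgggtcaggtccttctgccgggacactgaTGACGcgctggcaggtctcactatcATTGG
H2-Q4: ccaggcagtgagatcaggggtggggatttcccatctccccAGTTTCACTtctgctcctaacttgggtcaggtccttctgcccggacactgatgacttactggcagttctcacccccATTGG
H2-Q6: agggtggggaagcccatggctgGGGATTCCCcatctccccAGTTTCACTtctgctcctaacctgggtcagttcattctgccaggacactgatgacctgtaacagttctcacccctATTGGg
H2-Q7: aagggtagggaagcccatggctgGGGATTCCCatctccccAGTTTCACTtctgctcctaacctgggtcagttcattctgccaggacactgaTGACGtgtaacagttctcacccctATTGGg
The interferon response core stood in all 5 windows, the kappa B core in all but H2-Q4 and the CRE-like core in H2-K1, H2-D1 and H2-Q7. H2-Q4 had a CRE-like core outside the window, at -73 from the start site. Aligned without gaps at the interferon response core, the windows of H2-K1 and H2-D1 had 90.9% of bases in common, those of H2-Q6 and H2-Q7 86.0%, and the other pairs 66.1% to 81.0%. Among 27025 promoters of the same length these letters occurred in 0.322%, 0.370% and 21.0%, and the inverted CCAAT box in 37.9%. A match is a description of letters, and a missing match says only that these letters are not in this window.

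H2-K1 was highest in Treg at 6116, 5643, 4186 and 4182 CPM and lowest in tumour cells at 1227, 1159, 840 and 492 CPM, a 5.41-fold range of means. In each of the 4 libraries Treg lay above every other class. Migratory DCs (mean 3772), microglia (3697) and CD4 T cells (3602) came next with overlapping ranges, followed by NK cells (2965), CD8 T cells (2441), macrophages (2438), cDC2 (2316) and monocytes (2202), and then by neutrophils at 2387, 1678, 1382 and 764 CPM. Neighbours in that order overlapped from migratory DCs down to tumour cells, although neutrophils lay below monocytes and above tumour cells in each library taken alone.

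H2-D1 had another order. Microglia led with 2510, 2349, 2794 and 3382 CPM, then migratory DCs (mean 2530), Treg (2269), macrophages (1998) and monocytes (1970), and CD8 T cells were the lowest leukocytes at 1224, 1115, 1506 and 1500 CPM. Tumour cells had 944, 970, 579 and 495 CPM, below the range of every other class. Among the other neighbours in the order the ranges overlapped, although microglia lay above migratory DCs, and these above Treg, in each library taken alone.

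B2m, the light chain that the heavy chains share, was highest in microglia at 10221, 9455, 6211 and 5691 CPM. Migratory DCs (mean 6126), macrophages (5595), Treg (5262) and monocytes (5256) followed, CD4 T cells had a mean of 4200 CPM, and neutrophils, cDC2, CD8 T cells and NK cells lay between 3551 and 3767 CPM on average and did not differ beyond their ranges. Tumour cells had 2711, 2674, 1276 and 1167 CPM, a 4.03-fold range of means from microglia.

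Of the Qa genes, H2-Q6 and H2-Q7 had higher means in lymphocytes and migratory DCs than in monocytes, macrophages and neutrophils. H2-Q7 was at 953, 1074, 1135 and 1069 CPM in migratory DCs and at 967, 1076, 812 and 1078 CPM in Treg, which overlapped, and CD4 T, NK and CD8 T cells had means of 676, 607 and 560 CPM. Microglia (357), cDC2 (329), macrophages (260) and monocytes (233) came after, followed by tumour cells at 223, 121, 115 and 69.0 CPM and neutrophils at 169, 149, 60.4 and 25.8 CPM, which overlapped.

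H2-Q6 had the widest range of the 10 genes, 52.6-fold. It was at 857, 814, 813 and 581 CPM in migratory DCs, above the range of every other class, and at 28.5, 12.6, 14.5 and 2.66 CPM in tumour cells, which rest on 15, 10, 69 and 8 UMIs. H2-Q4 varied less, with 365, 313, 504 and 639 CPM in migratory DCs, 110 to 130 CPM in CD8 T cells and 95.1, 107, 106 and 63.7 CPM in tumour cells.

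Among the genes of peptide supply, Psmb8 was highest in migratory DCs at 890, 838, 1245 and 1452 CPM, above the range of every other class. cDC2 (mean 656), monocytes (528) and Treg (522) followed with overlapping ranges, and NK cells had 208, 189, 290 and 261 CPM. Tumour cells had 89.4, 59.3, 126 and 63.7 CPM, 13.1-fold below migratory DCs on average.

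Tap1, a subunit of the peptide transporter, was likewise highest in migratory DCs (516, 422, 523 and 383 CPM), but overlapped there with Treg, cDC2 and monocytes. It was at 89.4, 78.2, 84.8 and 22.9 CPM in tumour cells, and NK cells were the lowest leukocytes at 124 to 173 CPM. Tapbp ran from 1150, 923, 852 and 482 CPM in migratory DCs and 1032, 776, 682 and 398 CPM in monocytes to 185, 136, 145 and 61.1 CPM in tumour cells.

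Nlrc5, which switches on class I genes, had a 4.52-fold range of means. Migratory DCs had 189, 174, 120 and 122 CPM, Treg 86.8, 120, 152 and 130 CPM and CD8 T cells 105, 91.9, 92.5 and 89.3 CPM. Treg overlapped with both other classes, whereas CD8 T cells lay below the range of migratory DCs. Macrophages were at 39.98, 29.1, 36.3 and 28.5 CPM and tumour cells at 70.4, 29.0, 39.3 and 17.9 CPM, with overlapping ranges.

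**Figure D1:**
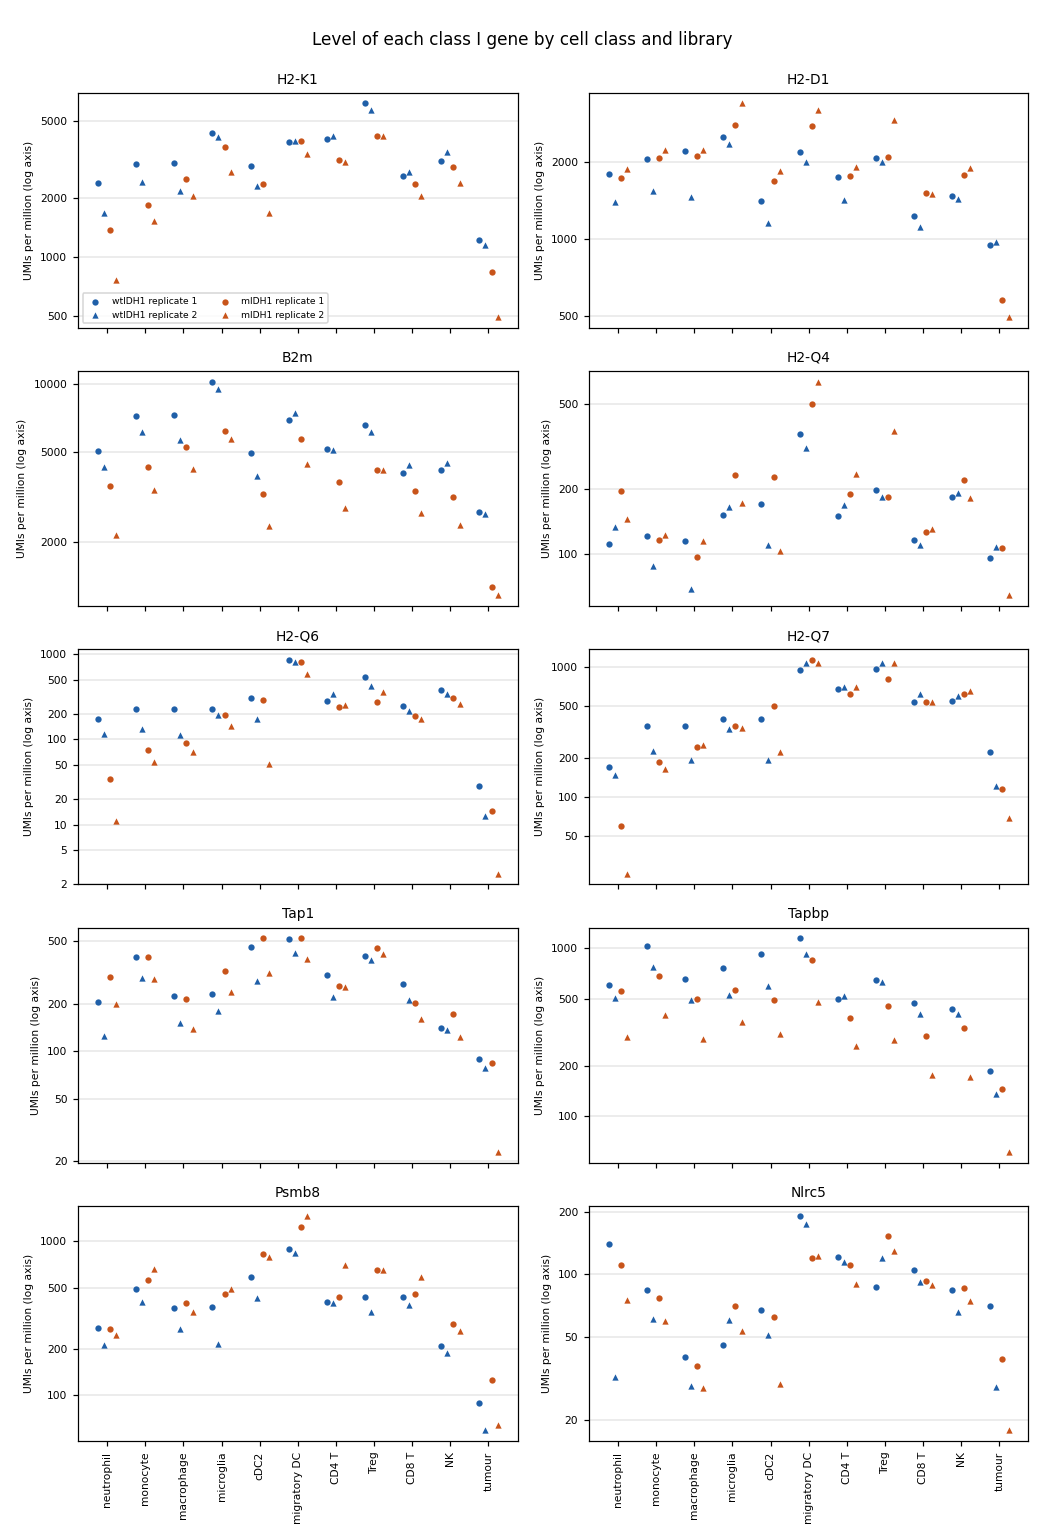
Level of each gene in CPM of the class sum (log axes, a separate scale per gene) in 11 cell classes; each point is 1 library, blue for wtIDH1 and orange for mIDH1. Tumour cells are at the bottom for H2-K1, H2-D1 and B2m, and migratory DCs at the top for H2-Q6 and Psmb8 in all 4 libraries.

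Shares of cells with a UMI were read after thinning each cell to 1000 UMIs, leaving out shallower cells (2, 1, 0 and 1 tumour cells, 4, 14, 46 and 61 neutrophils, 18, 18, 13 and 9 microglia, 6, 1, 2 and 2 migratory DCs and no Treg). At that depth a UMI of H2-K1 was expected in 96.6% ± 3.1 of Treg and 50.03% ± 14.2 of tumour cells (mean and SD, n = 4), of B2m in 99.7% ± 0.2 of microglia and 75.4% ± 14.5 of tumour cells, and of Psmb8 in 61.6% ± 8.4 of migratory DCs and 8.3% ± 3.5 of tumour cells. Unthinned, at the unequal depths given above, 85.4% to 95.04% of tumour cells held a UMI of H2-K1. H2-Q6 was expected in 1.29% ± 1.13 of tumour cells and 6.46% ± 5.29 of neutrophils at the common depth, against 53.6% ± 5.4 of migratory DCs. Free RNA from other cells can give single UMIs, no compared class is known to lack these genes, and the part of free RNA in the low shares was not tested.

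Within the tumour gate the classical genes were spread over most cells. Only 2, 6, 2 and 4 cells had no UMI of H2-K1 or H2-D1, and the 10% of cells with the most classical UMIs held 35.4% to 39.2% of them. The median cell had 19.4, 15.4, 10.7 and 7.62 classical UMIs per 10000, so the mIDH1 medians lay below the wtIDH1 ones. Median depth was 6668.5 and 20972 UMIs in the wtIDH1 and 37460 and 34916 UMIs in the mIDH1 tumour-gated cells. The part of depth in these medians was not tested. Cells without a UMI of the endothelial gene Cdh5 were 22 of 38, 17 of 41, 120 of 121 and 77 of 81. The medians were not taken for these cells alone, and the part of Cdh5 cells in them was not tested. In the sums without Cdh5 cells H2-K1 was at 940, 1139, 831 and 469 CPM and H2-D1 at 751, 899, 576 and 474 CPM. T cell markers summed to at most 5.71 CPM in the tumour-gated cells and the macrophage gene C1qa was at 1.33 to 15.2 CPM, against 2528 to 3412 CPM in macrophages. All macrophage markers together summed to 1140, 1121, 734 and 666 CPM and microglia markers to 327, 777, 162 and 186 CPM, against at least 563 CPM for the tumour list itself, and their part in the tumour values was not tested.

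Counting the Qa genes as a share of the UMIs of the 5 heavy chain genes gives a measure that does not depend on scaling. It was 26.5%, 27.1%, 26.9% and 25.9% in migratory DCs (mean 26.6% ± 0.53 SD, n = 4), the highest of the compared classes in every library. NK cells (mean 19.7%), CD8 T cells (19.0%), Treg (18.1%) and CD4 T cells (17.7%) formed a middle group. Microglia (10.1%), monocytes (9.87%), macrophages (9.71%) and neutrophils (9.08%) were low, with tumour cells at 12.6% and cDC2 spread from 9.66% to 20.2%.

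The Qa share of all T cells together was 17.6%, 19.2%, 17.8% and 19.4%, and that of macrophages 11.7%, 9.33%, 8.55% and 9.26%. T cells exceeded macrophages by 8.78 percentage points ± 1.99 (SD, n = 4), with the same sign in 4 of 4 libraries, the smallest exact two-sided sign-flip p that 4 libraries allow being 0.125. The difference itself did not separate the genotypes (exact permutation p = 0.667, two-sided, smallest possible 0.333). In CD8 T cells against macrophages the genes of the share differed unequally. H2-Q7 made up 11.4% to 12.9% of heavy chain UMIs in CD8 T cells and 4.85% to 5.93% in macrophages, and H2-Q6 3.97% to 5.23% and 1.52% to 3.86%. H2-Q4 made up 2.29% to 2.96% and 1.70% to 2.43%, with overlapping ranges. Within each library H2-Q4 was still higher in CD8 T cells, at 2.45%, 2.29%, 2.66% and 2.96% against 1.93%, 1.70%, 1.92% and 2.43%.

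**Figure D2:**
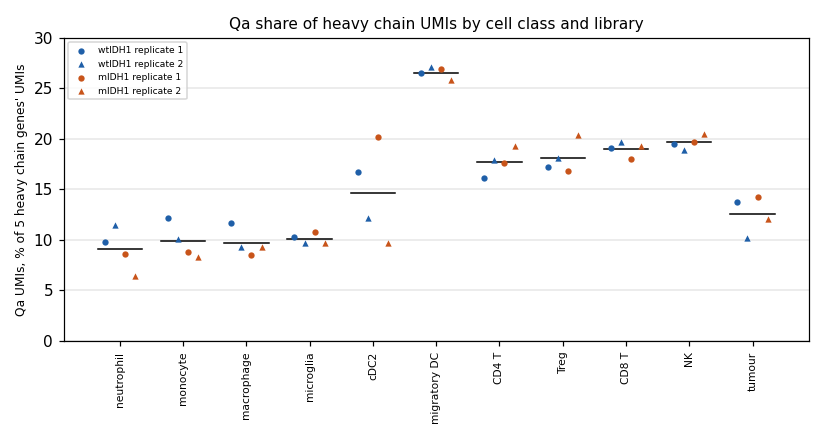
Percentage of heavy chain UMIs that belong to H2-Q4, H2-Q6 and H2-Q7 in each class; points are libraries (blue wtIDH1, orange mIDH1) and black bars the mean of 4. Migratory DCs lie between 25.9% and 27.1%, lymphocytes between 16.2% and 20.5%, and microglia, macrophages and monocytes between 8.33% and 12.2%.

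Class contrasts were tested with edgeR's quasi-likelihood test on the class sums of all 11 classes, with the library as a term. The p-values were Benjamini-Hochberg adjusted over 9674 genes, and log2 fold changes are given ± SE. The test itself gives no SE. Here and below, each SE of an edgeR fit is the absolute log2 fold change divided by the square root of the F statistic. These fits scale by trimmed means, so a value can differ from the ratio of CPM. Classes of a library share that library and are not independent. Of 90 tests of the 10 genes in 9 contrasts, 43 passed the threshold of 0.05. The share of all genes called ran from 13% to 70.3% over these contrasts. A pair of further contrasts, migratory DC against cDC2 and Treg against CD4 T cells, was added after the levels had been seen.

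Tumour cells were lower than CD8 T cells in 10 of 10 genes, in a contrast where 60.8% of all genes were called and 29.7% were called lower. They were lower than macrophages in 8 of 10, where 70.3% of all genes were called and 35.2% were called lower. Against macrophages Psmb8 fell by 2.34 ± 0.17 (adjusted p = 5.6e-16), B2m by 1.88 ± 0.13 (1.4e-16), H2-K1 by 1.74 ± 0.13 (4.5e-15) and H2-Q6 by 3.50 ± 0.35 (1.0e-11) on the log2 scale. The exceptions were Nlrc5, with -0.22 ± 0.22 (adjusted p = 0.38), and H2-Q4, with -0.37 ± 0.20 (adjusted p = 0.094). The median over the 10 genes was -1.76 against macrophages and -1.55 against CD8 T cells, beside -0.004 and 0.021 over all genes. With tumour-gated cells that held a Cdh5 UMI left out (22, 17, 120 and 77 cells stayed), H2-Q4 was also called against macrophages (-0.62, adjusted p = 0.0074), as it was without wtIDH1 replicate 2 (-0.58, adjusted p = 0.027). H2-Q4 against CD8 T cells (-0.49 ± 0.20, adjusted p = 0.037) was lost when library totals alone set the scale (adjusted p = 0.103), with DESeq2 size factors (0.125), by DESeq2 (0.128), with the stricter marker gate (0.0577), and without wtIDH1 replicate 1, mIDH1 replicate 1 or mIDH1 replicate 2 (0.0741, 0.0574 and 0.204).

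Macrophages were lower than monocytes, the blood cells they can arise from, in the transactivator and in peptide supply: Nlrc5 fell by 1.15 ± 0.20 (adjusted p = 1.8e-05), Tap1 by 1.01 ± 0.21 (0.00019), Psmb8 by 0.67 ± 0.15 (0.0007) and Tapbp by 0.64 ± 0.15 (0.001), while none of the heavy chains or B2m was called. That is 4 of 10 genes against 32.9% of all genes, with 17.4% called lower and 15.5% higher. Microglia, the resident phagocytes of the brain, were higher than macrophages in 4 of 10 genes, against 27.1% of all genes called and 12.5% called higher. These were H2-Q4 (0.80 ± 0.21, adjusted p = 0.0027), Nlrc5 (0.73 ± 0.25, 0.025), H2-K1 (0.46 ± 0.13, 0.007) and B2m (0.34 ± 0.13, 0.039). The microglial calls of B2m, H2-K1 and Nlrc5 were lost with a limit of 5% mitochondrial UMIs (adjusted p = 0.34, 0.084 and 0.088), and all 4 were lost without wtIDH1 replicate 2, where the adjusted p ran from 0.052 to 0.236. B2m was also lost without wtIDH1 replicate 1 (0.083), without doublet removal (0.115) and, as was H2-K1, without the low-count filter (0.259 and 0.0801), and Nlrc5 and H2-Q4 without mIDH1 replicate 1 (0.138 and 0.0525).

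Neutrophils differed from monocytes in 4 of 10 genes, against 53.1% of all genes. H2-Q7 fell by 1.22 ± 0.27 (adjusted p = 0.00016) and Psmb8 by 0.68 ± 0.16 (0.00048), whereas H2-Q4 rose by 0.87 ± 0.20 (0.00033) and Nlrc5 by 0.86 ± 0.21 (0.00073). Both rises were lost when library totals alone set the scale (0.42, adjusted p = 0.068, and 0.37, adjusted p = 0.11). Nlrc5 was at 140, 32.2, 110 and 75.7 CPM in neutrophils and 84.2, 60.9, 76.6 and 59.5 CPM in monocytes, so that by CPM wtIDH1 replicate 2, with 8 UMIs in neutrophils, went the other way. cDC2 were lower than monocytes in B2m (-0.78 ± 0.13, adjusted p = 5.3e-06), H2-D1 (-0.64 ± 0.17, 0.0033) and Tapbp (-0.58 ± 0.16, 0.0045), 3 of 10 genes against 27.3% of all genes called and 17.1% called lower. H2-D1 lost its call without wtIDH1 replicate 1 (0.0588) and by library totals (0.0792), and Tapbp without mIDH1 replicate 1 (0.0791).

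CD8 T cells, which read class I, differed from macrophages in 6 of 10 genes, against 61.1% of all genes. They were higher in Nlrc5 (1.31 ± 0.21, adjusted p = 4.6e-07), H2-Q7 (0.95 ± 0.23, 0.00051) and H2-Q6 (0.66 ± 0.28, 0.039), and lower in B2m (-0.82 ± 0.13, 3.4e-07), H2-D1 (-0.77 ± 0.17, 0.0001) and Tapbp (-0.73 ± 0.15, 7.2e-05). H2-Q6 lost its call when any of wtIDH1 replicate 2, mIDH1 replicate 1 or mIDH1 replicate 2 was left out (adjusted p = 0.13, 0.18 and 0.101), by DESeq2 (0.0823), at the 5% mitochondrial limit (0.0691) and with the tumour gate without Cdh5 cells (0.0718).

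NK cells differed from CD8 T cells in 3 of 10 genes, against 29.8% of all genes: Psmb8 fell by 1.11 ± 0.16 (adjusted p = 9.6e-07) and Tap1 by 0.67 ± 0.23 (0.02), and H2-Q4 rose by 0.59 ± 0.20 (0.024). The last pair lost its call without wtIDH1 replicate 1, without wtIDH1 replicate 2 or without mIDH1 replicate 1 (adjusted p between 0.055 and 0.15) and at the 5% mitochondrial limit (0.0501 for Tap1 and 0.0755 for H2-Q4). Tap1 was also lost with the stricter marker gate (0.0503) and H2-Q4 without doublet removal (0.0734). CD4 T cells differed from CD8 T cells in 1 of 10, H2-K1 (0.44 ± 0.13, adjusted p = 0.021), against 13% of all genes, and this call was lost without either wtIDH1 library (adjusted p = 0.135 without replicate 1 and 0.118 without replicate 2), without the low-count filter (0.0904) and at the 5% mitochondrial limit (0.0577).

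Migratory DCs were higher than cDC2 in 9 of 10 genes, against 35.4% of all genes called and 16.5% called higher. H2-Q6 rose by 2.11 ± 0.31 (adjusted p = 4.7e-07), H2-Q7 by 1.84 ± 0.25 (1.0e-07), H2-Q4 by 1.64 ± 0.22 (6.4e-08) and Nlrc5 by 1.61 ± 0.28 (7.8e-06), and H2-K1, H2-D1, B2m, Psmb8 and Tapbp by 0.69 to 0.89. Tap1 did not pass (0.37 ± 0.22, adjusted p = 0.21). Treg, although highest in H2-K1, differed from CD4 T cells in 0 of 10 genes by edgeR, against 6.23% of all genes. Of the 10 genes, 2 had an unadjusted p under 0.05, beside 1586 of 9674 over all genes, and DESeq2 called 1. H2-K1 stood at 0.31 ± 0.13 (adjusted p = 0.2 by edgeR and 0.0321 by DESeq2).

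**Figure D3:**
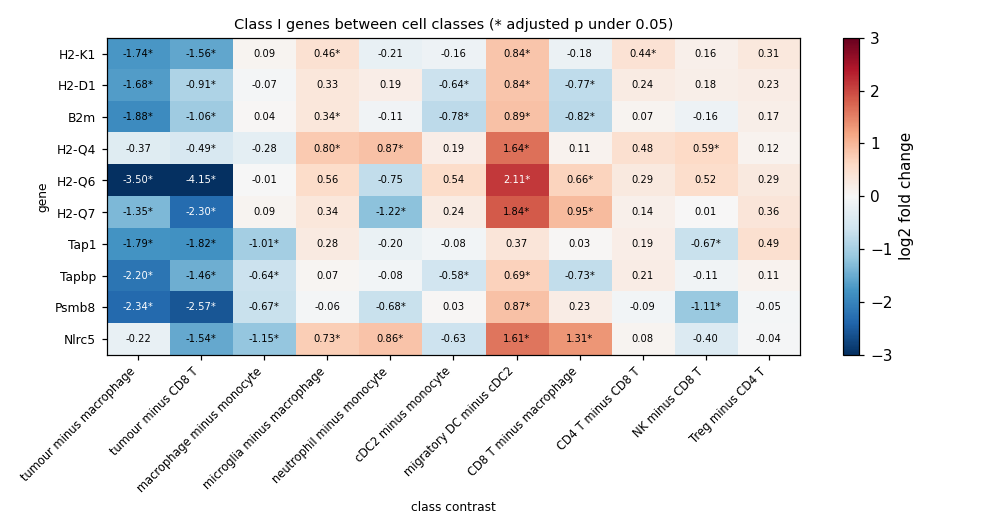
Fitted log2 fold changes of the 10 genes (rows) in 11 class contrasts (columns), colour scale cut at 3 in either direction, asterisks for adjusted p under 0.05. The tumour columns are negative throughout and the column of migratory DC minus cDC2 is positive throughout, with Tap1 there without an asterisk.

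Further genes of the pathway were counted in the same contrasts. In tumour cells against macrophages, where 35.2% of all genes were lower, 10 of 11 tested genes of peptide supply and loading were lower and 0 higher, among them Tap2, the other transporter subunit (-2.69 ± 0.21, adjusted p = 1.3e-14), Psmb9, an interferon-induced proteasome subunit (-2.56 ± 0.24, 1.3e-12), the peptidase gene Lnpep (-1.83 ± 0.20, 1.4e-10) and the chaperone gene Calr (-1.13 ± 0.16, 3.0e-08). All 5 tested other heavy chain genes were lower, led by H2-T23, which encodes Qa-1 (-2.58 ± 0.20, 3.4e-15), and 6 of 8 regulators were lower, among them Ciita, the class II transactivator (-5.04 ± 0.44, 1.8e-13), and Irf2 (-1.72 ± 0.22, 4.4e-09). All 6 tested genes of interferon gamma and its receptor pathway were lower, including Ifngr1 (-2.48 ± 0.19, 2.7e-15) and Ifngr2 (-2.05 ± 0.17, 6.6e-14). The proteasome subunits that Psmb8 and its partners replace were mixed, with Psmb7 at 0.29 ± 0.13 (adjusted p = 0.049) and Psmb6 at -0.36 ± 0.15 (0.025).

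In macrophages against monocytes, where 17.4% of all genes were lower and 15.5% higher, 7 of 11 genes of peptide supply and loading were lower and 2 higher, the latter being Canx (0.53 ± 0.13, adjusted p = 0.0016) and Calr (0.42 ± 0.15, 0.032), which encode chaperones of glycoprotein folding in general. Of the regulators 5 of 8 were lower, with Nfkb1 at -1.25 ± 0.20 (adjusted p = 7.4e-06) and Irf1 at -1.05 ± 0.23 (0.00045). All 6 genes induced by type I interferon were lower too, among them Isg15 (-2.07 ± 0.33, 4.9e-06) and Mx1 (-1.77 ± 0.28, 4.2e-06). In migratory DCs against cDC2, 35.4% of all genes were called and 16.5% were called higher. Of 11 genes of peptide supply and loading there, 5 were higher and 2 lower, and 0 of 5 tested other heavy chain genes were called. Psme2 and Psme1, the activator subunits of the proteasome, rose by 1.79 ± 0.19 (4.2e-10) and 0.94 ± 0.17 (2.2e-05). Tapbpl, a second peptide editor, rose by 1.72 ± 0.23 (7.4e-08), and Ciita fell by 3.18 ± 0.30 (1.4e-11). Neutrophils exceeded monocytes in H2-Q10, a further Qa-region gene that shares sequence with H2-K1 and H2-Q7 and is uncertain for that reason (4.94 ± 0.27, adjusted p = 1.1e-18).

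The genotypes were compared in each class with edgeR's quasi-likelihood test on 2 sums against 2, positive values meaning higher in mIDH1. Of 110 tests of the 10 genes, 3 were called, all in monocytes and NK cells. In monocytes 2 of 10 genes were called, against 15.8% of all genes, and in NK cells 1 of 10, against 5.72%. None of the 10 genes was called by edgeR in the other 9 classes. There 22 of 90 tests had an unadjusted p under 0.05 and DESeq2 called 6. Over all genes, an unadjusted p under 0.05 was reached by 1179 of 6526 in neutrophils and 2630 of 10493 in macrophages. The counts were 753 of 4855 in cDC2, 656 of 4769 in migratory DCs and 767 of 6237 in microglia. For T cells they were 1137 of 6260 (CD4), 432 of 3376 (Treg) and 1982 of 8759 (CD8), and for tumour cells 2503 of 9878. In those 9 classes the share of all genes called was 0.0153% in neutrophils, 7.83% in macrophages, 2.1% in microglia and 1.85% in cDC2. It was 0% in migratory DCs, 4.33% in CD4 T cells, 2.1% in Treg, 4.03% in CD8 T cells and 3.97% in tumour cells. In tumour cells this count changed with the gate. Without cells that held a Cdh5 UMI, which left 22 of 38 and 17 of 41 wtIDH1 but 120 of 121 and 77 of 81 mIDH1 cells, 1 gene was higher and 5 lower of 9729, in place of 231 and 161 of 9878, and without wtIDH1 replicate 2 the counts were 6 and 35. None of the 10 genes was called in tumour cells in any of these fits. In migratory DCs edgeR called 0 of 4769 genes, with 656 at an unadjusted p under 0.05, and DESeq2 called 80 higher and 2 lower.

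Monocyte H2-Q6 was at 225 and 134 CPM in wtIDH1 and 74.7 and 54.4 CPM in mIDH1, without overlap. It fell by 1.23 ± 0.25 on the log2 scale (adjusted p = 0.0056), and the adjusted p was 0.066 without wtIDH1 replicate 1 and 0.064 without mIDH1 replicate 2. Psmb8 was at 491 and 403 against 560 and 660 CPM in monocytes (0.73 ± 0.22, adjusted p = 0.04) and at 208 and 189 against 290 and 261 CPM in NK cells (0.68 ± 0.20, adjusted p = 0.047). Both Psmb8 calls were lost when library totals alone set the scale (0.45, adjusted p = 0.12, and 0.46, adjusted p = 0.17) and without either wtIDH1 library (adjusted p between 0.087 and 0.57), and the monocyte call also without mIDH1 replicate 2 (0.181). The NK call was lost by DESeq2 too (0.0986), without the low-count filter (0.0628), at the 5% mitochondrial limit (0.1498) and without doublet removal (0.0735), so that it held in 5 of 12 planned settings. Neutrophil markers summed to 378, 387, 1985 and 2528 CPM in the monocyte sums and to 22.8, 22.1, 131 and 385 CPM in the NK sums, higher in mIDH1 in both, and their part in these calls was not tested.

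The count of calls changed when a library was left out, but such a fit leaves 1 sum in a genotype and its count is not read here. Scaling by library totals alone moved the median of all genes to between -0.19 and -0.44 in the 11 classes and called 14. The fitted values given here are relative to that shift. Calls over all genes moved with it. In monocytes, with 5 of the 14, 612 of 9659 genes were called higher and 1789 lower, in place of 1003 and 527. In neutrophils, with 3 of the 14, the counts were 68 and 270 of 6526, in place of 0 and 1. Whether the 14 calls exceed this background was not tested.

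In neutrophils H2-Q6 was at 175 and 117 CPM in wtIDH1 and 34.6 and 11.04 CPM in mIDH1, from 30, 29, 59 and 42 UMIs, and H2-Q7 at 169 and 149 against 60.4 and 25.8 CPM. The fitted differences of -2.35 ± 0.44 (adjusted p = 0.091) and -1.52 ± 0.34 (adjusted p = 0.099) did not pass the test, whereas DESeq2 called both (0.0013 and 0.031). H2-Q4 was at 111 and 133 against 197 and 146 CPM (0.92 ± 0.29, adjusted p = 0.155), with the opposite sign. The neutrophil sums rest on 81 and 141 wtIDH1 cells against 751 and 1518 mIDH1 cells. Macrophage markers summed to 2440, 2930, 2826 and 673 CPM in them, and the neutrophil gene S100a8 was at 21393, 19603, 29106 and 58889 CPM, and the part of either in the Qa values was not tested.

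The Qa share moved with these genes. In neutrophils it was 9.84% and 11.5% in wtIDH1 and 8.57% and 6.46% in mIDH1, in monocytes 12.2% and 10.1% against 8.81% and 8.33%, and in macrophages 11.7% and 9.33% against 8.55% and 9.26%, each without overlap between genotypes. NK cells had 19.5% and 18.9% against 19.7% and 20.5%, with the opposite order. In microglia, cDC2, migratory DCs, CD4 T, Treg, CD8 T and tumour cells the genotypes overlapped, and 2 libraries a genotype cannot give an exact permutation p below 0.333.

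Whether the genotype difference was the same in neutrophils and macrophages was tested by an interaction term, in a fit that also held a term for each library. Among the 10 genes, H2-Q7 (-1.34 ± 0.39, adjusted p = 0.035) and Tap1 (1.29 ± 0.37, adjusted p = 0.036) were called, against 1.71% of all genes, whose median was 0.33. Both calls were lost without wtIDH1 replicate 1, without wtIDH1 replicate 2 or without mIDH1 replicate 2 (adjusted p between 0.235 and 0.665), and Tap1 also by library totals (0.70, adjusted p = 0.593), with DESeq2 size factors (1.01, 0.196), by DESeq2 (1.01, 0.34), without the low-count filter (1.05, 0.224) and at the 5% mitochondrial limit (1.05, 0.359).

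Across classes the genes had directions that recurred. B2m was lower in both mIDH1 libraries than in both wtIDH1 libraries, by CPM, in 11 of 11 classes, as were 3.36% of the 2527 genes tested in every class. Its fitted values were negative in all 11 as well, from -0.21 ± 0.22 in CD8 T cells to -0.81 ± 0.21 in tumour cells (adjusted p = 0.075). Without Cdh5 cells B2m was at 2138 and 2799 against 1274 and 1149 CPM in tumour cells (-0.68 ± 0.27, adjusted p = 0.287). H2-K1 and H2-Q6 were lower by CPM in 8 of 11 classes and Tapbp in 7, beside 26.6% of all genes that were lower in 8 or more. H2-D1 and Psmb8 were higher in 8 of 11, beside 10% of all genes, H2-D1 being lower in tumour cells (944 and 970 against 579 and 495 CPM). The signs of B2m, Psmb8, H2-D1 and H2-Q6 were the same in the fits by library totals and by DESeq2, whereas H2-Q7 was positive in 8 classes as fitted and in 3 by library totals, and Tap1 in 9 and in 5. The classes share the 4 libraries, so these counts are not independent, and in most classes the difference did not pass the test.

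The opposite course of the classical genes can be read without any scaling as the ratio of H2-K1 to H2-D1 UMIs, a measure chosen after the levels had been seen. It was 1.34 and 1.20 in wtIDH1 and 0.796 and 0.406 in mIDH1 neutrophils, 1.46 and 1.58 against 0.9002 and 0.686 in monocytes, and 2.13 and 2.46 against 1.58 and 1.36 in CD8 T cells. The ratio was lower in both mIDH1 libraries in all 10 leukocyte classes and overlapped in tumour cells (1.30 and 1.20 against 1.45 and 0.994). mIDH1 replicate 2 had the lowest ratio in 11 of 11 classes. H2-Q6 over H2-Q4 was likewise lower in mIDH1 in 10 of 11 classes. It was 1.86 and 1.54 against 0.643 and 0.443 in monocytes and 2.13 and 1.97 against 1.51 and 1.34 in CD8 T cells. By CPM, H2-K1 and H2-Q6 were lower in mIDH1 in 8 classes each. H2-D1 was higher in 8 and lower in 1, and H2-Q4 was higher in 5 and lower in 0. The direction of both ratios follows in part from that choice of genes. The classes share the 4 libraries, and the share among other gene pairs was not taken. Each library belongs to 1 genotype, so a trait of a library and the genotype cannot be told apart here. Over all kept cells the median depth was lower in both mIDH1 libraries, but within the classes it was higher in both mIDH1 libraries in 9 of 11 and overlapped in macrophages and microglia. In CD8 T cells it was 6324 and 5884 UMIs in wtIDH1 and 7345 and 6956 in mIDH1. The part of depth in the ratios was not tested.

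**Figure D4:**
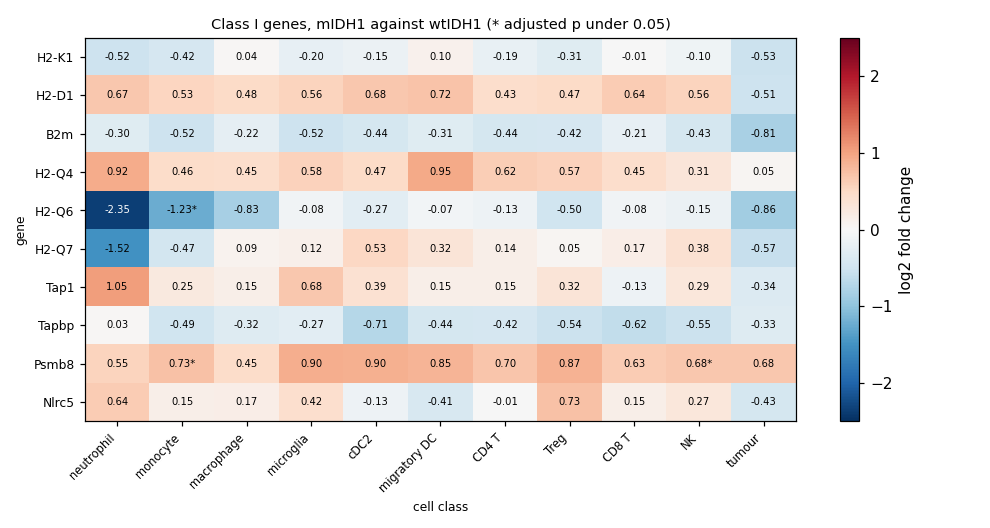
Fitted log2 fold changes, mIDH1 against wtIDH1, of the 10 genes (rows) in 11 classes (columns), asterisks for adjusted p under 0.05. The row of B2m is negative and that of Psmb8 positive in every class, H2-D1 is negative in tumour cells and positive in the other 10 classes, and 3 fields carry an asterisk.

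Other genes of the pathway gave few genotype calls. Of all genes, 15.8% were called in monocytes, 5.72% in NK cells, 7.83% in macrophages, 4.03% in CD8 T cells and 2.1% in microglia. In NK cells Psmb5, a subunit replaced in the interferon-induced proteasome, and Psme1 rose and Lnpep fell. These calls were lost in 7, 4 and 6 of 13 settings. Ifit2, induced by type I interferon, fell in monocytes, a call lost in 3 of 13 settings. In monocytes Socs1, an inhibitor of interferon signalling, rose by 1.13 ± 0.18 (adjusted p = 0.0018), Psmb6 rose by 0.79 ± 0.19 (0.015) and Lnpep fell by 0.79 ± 0.21 (0.022). Ciita rose in macrophages (1.002 ± 0.17, adjusted p = 0.013), Ifng in CD8 T cells (1.04 ± 0.21, 0.026) and Socs1 in microglia (2.52 ± 0.52, 0.01). Neutrophil markers summed to 264, 454, 2714 and 10690 CPM in the microglial sums, to 358, 427, 1443 and 2881 CPM in the macrophage sums and to 5.38, 79.5, 297 and 206 CPM in the CD8 T cell sums, where the myeloid gene Lyz2 was at 26.9, 39.1, 40.001 and 767 CPM, and their part in these changes was not tested. The call of Ifng was lost in 4 of 13 settings, among them without either wtIDH1 library, and that of Ciita without wtIDH1 replicate 2. In monocytes the call of Psmb6 was lost by library totals, without wtIDH1 replicate 2 or without mIDH1 replicate 2, and that of Lnpep without wtIDH1 replicate 1 or without mIDH1 replicate 2, whereas Socs1 held in 13 of 13 settings in both classes.

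In CD4 T cells, where 1.23% of all genes fell, 3 of 6 genes induced by type I interferon did so, Rsad2 by 2.32 ± 0.33 (adjusted p = 0.0017), Ifit1 by 1.90 ± 0.31 (0.0035) and Mx1 by 1.97 ± 0.52 (0.046). The call of Mx1 was lost in 7 of 13 settings, among them without wtIDH1 replicate 1 or without mIDH1 replicate 1. None of the 10 followed genes was called there.

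Over the 44 class-by-library sums the genes with the course most like the classical sum (H2-K1 with H2-D1), by Pearson's r of log2(CPM + 1) among 6532 genes with a mean of at least 20 CPM, were Tap2 (r = 0.83), Hvcn1 (0.83), Il2rg (0.82), Psen2 (0.82) and Il21r (0.81). Those most like the Qa sum were Birc2 (0.89), Pla2g16 (0.89), Foxn3 (0.87), Apobec3 (0.86) and Stat5a (0.85). Among the 10 genes themselves H2-K1 ran closest to H2-Q6 (r = 0.92), H2-Q6 to H2-Q7 (0.88) and Tap1 to Psmb8 (0.86), and the lowest pair was B2m with H2-Q4 (0.28). The sums share libraries and depth, and these values are descriptions across classes.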

How the data were processed

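The 4 libraries (2 per genotype) hold UMI counts that the authors deposited per library; Cell Ranger 3.1 with STAR alignment to mm10 is given in the labels' protocols, and the file headers name software version 3.0.0. The labels also describe scaling to equal depth over combined runs, which the separate matrices used here do not record. Cells with at least 200 genes and at most 10% mitochondrial UMIs were kept, and the highest Scrublet scores were removed as doublets at 0.8% per 1000 barcodes (93, 90, 142 and 121 cells), since the automatic threshold marked 1 to 3 per library. A class needed 2 markers, a mean capped marker score of 0.2 and 1.25 times the next score. The macrophage score left out Apoe and the C1q genes.

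UMIs were summed per class and library. Tests used edgeR 4.0.16 (quasi-likelihood, trimmed-mean scaling, filterByExpr) in R 4.3.3 with Benjamini-Hochberg adjustment over all genes tested and a threshold of 0.05, and DESeq2 1.42.0 as an alternative. Genotype fits used the 4 sums of a class; class contrasts used all 44 sums with the library as a term. On simulated counts with 100 genes changed at each size, the genotype fit found 25% of 2-fold and 79% of 4-fold changes in neutrophils. It found 61% and 100% in macrophages, and the interaction fit found 5% and 58%. The simulated spread was a single dispersion set beforehand for all genes, not estimated from these data, and genes of low count were left out. Real genes may be found at other rates. Cell handling used scanpy 1.11.5.

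The 10 genes, the gene lists and the contrasts were chosen with earlier results of these data known, and 1 gene of the list of regulators is not reported here. All 10 genes are described; of each further list up to 4 genes with the lowest p in a class are named, and the 5 genes most correlated with each heavy chain sum. Alternatives were other scalings, DESeq2, no low-count filter, a 5% mitochondrial limit, no doublet removal, a stricter gate, a replicate block, a tumour gate without Cdh5 cells (chosen after seeing the data) and leaving out each library. Intervals and levels cover counting error only where no replicate spread is given. Replicate numbers did not pair the libraries.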

Additional observations from a re-analysis of the deposited data

Results flagged for a closer look

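The genotype difference (mIDH1 against wtIDH1) differed between neutrophils and macrophages for 2 of the 10 genes by a test of that difference itself (edgeR quasi-likelihood interaction, adjusted p under 0.05). For H2-Q7 the neutrophil difference minus the macrophage difference was -1.34 on the log2 scale (SE 0.39, adjusted p = 0.0352), from 169 and 149 against 60.4 and 25.8 CPM in neutrophils and 351 and 194 against 244 and 250 CPM in macrophages. For Tap1 it was 1.29 (SE 0.37, adjusted p = 0.036), from 204 and 125 against 297 and 201 CPM in neutrophils and 224 and 151 against 216 and 139 CPM in macrophages. Neither call held without wtIDH1 replicate 1, without wtIDH1 replicate 2 or without mIDH1 replicate 2. The Tap1 call was also lost by library totals (0.70, adjusted p = 0.593), with DESeq2 size factors, by DESeq2, without the low-count filter and at the 5% mitochondrial limit, so that it held in 3 of 11 planned settings. The median of this difference over all genes was 0.33.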

How the results depend on the processing

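The 43 calls between classes ran from 39 to 47 under the other settings and from 36 to 42 with a library left out. The 3 genotype calls became 14 by library totals, 9 by DESeq2, 7 without the low-count filter and 6 with the replicate block, and 2 to 27 with a library left out, 27 of them without mIDH1 replicate 1. The replicate numbers mark no shared origin in the labels, and the deviations of same-numbered libraries correlated between -0.30 and 0.23 over the classes. The 2 interaction calls became 1 by DESeq2 and 1 at the 5% mitochondrial limit, and 0 to 3 with a library left out. The Qa share difference of 8.78 points between T cells and macrophages lay between 8.66 and 9.35 under the other settings and between 8.33 and 9.76 with a library left out. No fitted difference that was called reversed its sign under a setting run. The causes of these changes were not tested. Leaving out a library leaves 1 sum in a genotype, which is then assumed to vary like the others. Depth limits the low values, such as H2-Q6 in tumour cells with 8 to 69 UMIs a library and Nlrc5 with 8 UMIs in neutrophils of wtIDH1 replicate 2 and 7 in cDC2 of mIDH1 replicate 2.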

Other observations

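The classes with fewer than 20 cells in a library were in no test. Their Qa share of heavy chain UMIs was 19.1%, 13.7%, 16.3% and 15.6% in cDC1, 14.5%, 19.5%, 20.7% and 23.7% in plasmacytoid DCs, and 16.6%, 18.8%, 14.7% and 22.5% in B cells, in the library order used above. In these 49 plasmacytoid DCs the share was higher in both mIDH1 libraries, and this was not tested.

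The ratio of H2-K1 to H2-D1 UMIs in classes not given above was 1.38 and 1.48 in wtIDH1 against 1.18 and 0.926 in mIDH1 macrophages, 1.71 and 1.75 against 1.30 and 0.806 in microglia, and 2.94 and 2.84 against 1.996 and 1.44 in Treg. In the microglial sums the neutrophil gene S100a8 was at 9.88, 20.6, 877 and 4271 CPM, and its part in the microglial ratio was not tested. No test was made of a ratio chosen after its values were seen.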
